A study of Mus musculus with 13 samples.

Results

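The insulin, Akt and atypical protein kinase C (PKC) group consists of 9 genes, chosen by symbol: Insr, Irs1, Irs2, Pik3r1, Akt1, Akt2, Foxo1, Prkcz and Prkci. They were 9 of the 53392 genes in the count table, and all 9 passed the filter on low counts that left 14317 genes. RNaseq was done on whole liver of 13 female mice aged 8 to 14 weeks, each fed a diet with 28% of its calories from ethanol for 4 weeks. Every mouse was homozygous for Rosa26-loxP-stop-loxP-rtTA and carried Albumin-Cre, so the Dox-dependent activator was made in hepatocytes. ASAH+ mice had in addition TRE-ASAH1, an acid ceramidase transgene that Dox switches on, and ASAH− mice lacked it. Dox was given at 200 mg/l with ethanol (the Etoh-Dox diet) to 4 ASAH− and 5 ASAH+ mice, and 4 further ASAH+ mice received ethanol alone (the Etoh diet). No ASAH− mice without Dox and no mice without ethanol are among them.

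Insulin binds its receptor on the hepatocyte, and the receptor phosphorylates the adaptors IRS1 and IRS2, which recruit phosphatidylinositol 3-kinase. The lipid that this enzyme makes brings Akt to the membrane, where it is activated, and Akt then keeps FOXO1 out of the nucleus, which lowers transcription of genes of glucose production. The atypical kinases PKC zeta and PKC iota lie downstream of the same lipid signal and have been tied to lipid synthesis in liver. Ceramide is known to oppose Akt through PKC zeta and through protein phosphatase 2A. These steps are changes of phosphorylation and location, and RNaseq measures only how much transcript of each gene is present.

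None of the 9 genes passed the test for a difference between groups in any of 3 comparisons (edgeR's quasi-likelihood test, Benjamini-Hochberg adjusted p under 0.1 over all genes tested). Of all genes, 0.0140% passed that threshold in each comparison. The largest difference of any of the 9 was -0.40 on the log2 scale, of Irs2 between ASAH+ mice with and without Dox. The genes differed in how much they varied between mice of 1 group: Akt2 was among the steadiest genes measured, and Irs2 and, through the ASAH− mice, Foxo1 were among the more variable.

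The windows of 250 bases before the transcription start were searched for motifs tied to insulin and to basal transcription. The RefSeq promoter table (GRCm38.p6) held 15 promoters of 8 of the genes, Insr excepted. The letters searched on both strands were GTAAACA (bound by FOXO factors), TGTTTTG (the core of the insulin response element), CACGTG (the E-box), TGACGTCA (the cAMP response element) and GGGCGG (the GC-box). Irs1 and Irs2 are shown because both of their windows held the E-box and the insulin response element, Prkci because it held the latter, and Akt1 because it held the group's single FOXO match. Capitals mark these 3 motifs, and sequences read 5′ to 3′ along the gene.
Irs1: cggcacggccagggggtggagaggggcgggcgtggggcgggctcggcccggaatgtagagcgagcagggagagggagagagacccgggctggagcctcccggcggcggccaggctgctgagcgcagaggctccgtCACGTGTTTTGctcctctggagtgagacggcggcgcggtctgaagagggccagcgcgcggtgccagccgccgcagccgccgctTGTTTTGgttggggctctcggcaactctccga
Irs2: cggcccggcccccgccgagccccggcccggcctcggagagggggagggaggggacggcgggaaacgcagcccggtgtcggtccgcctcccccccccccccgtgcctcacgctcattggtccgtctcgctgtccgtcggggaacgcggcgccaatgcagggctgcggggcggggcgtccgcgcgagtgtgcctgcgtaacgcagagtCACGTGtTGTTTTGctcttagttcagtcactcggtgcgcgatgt
Prkci: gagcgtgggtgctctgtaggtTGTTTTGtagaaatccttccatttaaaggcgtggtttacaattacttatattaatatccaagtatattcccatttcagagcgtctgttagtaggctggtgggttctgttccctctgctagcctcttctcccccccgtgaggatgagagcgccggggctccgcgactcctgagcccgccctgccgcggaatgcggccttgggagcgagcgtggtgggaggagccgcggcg
Akt1: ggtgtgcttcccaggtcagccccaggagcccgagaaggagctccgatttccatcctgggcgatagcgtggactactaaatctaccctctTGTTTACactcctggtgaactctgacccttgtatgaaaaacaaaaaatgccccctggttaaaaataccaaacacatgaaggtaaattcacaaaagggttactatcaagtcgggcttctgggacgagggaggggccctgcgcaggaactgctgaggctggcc
The windows lie at chr1:82291440-82291689 (Irs1, minus strand), chr8:11008930-11009179 (Irs2, minus strand), chr3:30995521-30995770 (Prkci, plus strand) and chr12:112674885-112675134 (Akt1, minus strand).

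In Irs1 the E-box began at position -115 from the start site and the insulin response element at -111, so the 2 matches share letters, and another insulin response element began at -32. In Irs2 the E-box began at -44 and the insulin response element at -37, with 1 base between them. Of 32851 mouse promoter windows, 0.295% (97) held both motifs, while 6.02% held the E-box and 5.56% the insulin response element, with or without the other. No other combination of the motifs was counted. Irs1 and Irs2 are shown because they held both, so this share is no test of enrichment. The Prkci match began at -229. The FOXO letters, in 3.17% of all windows, were in 1 of the 15 windows, that of Akt1 at -161, on the opposite strand. The GC-box was in 9 of the 15 windows and in 32.7% of all, and the cAMP response element in 0 of the 15 and in 1.55% of all. Foxo1, Akt2, Pik3r1 and Prkcz held no match to the first 3 motifs, which says only that these letters are not in their windows.

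Values are CPM, counts relative to a library total scaled by the TMM method, given for replicates in the order of their numbers. Insr (ENSMUSG00000005534, chr8:3122061-3279617, minus strand, GRCm38) encodes the insulin receptor. In the ASAH− mice its level was 166, 181, 144 and 195 CPM. In the Dox-fed ASAH+ mice it was 203, 184, 169, 167 and 176 CPM, and in ASAH+ mice on Etoh it was 189, 228, 207 and 202 CPM. The mice without Dox were the highest as a group, but 1 ASAH− mouse and 1 ASAH+ mouse on Etoh-Dox lay within their range. The means were 172 ± 22.1 (SD, n = 4), 180 ± 14.6 (SD, n = 5) and 206 ± 16.2 (SD, n = 4).

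**Figure D1:**
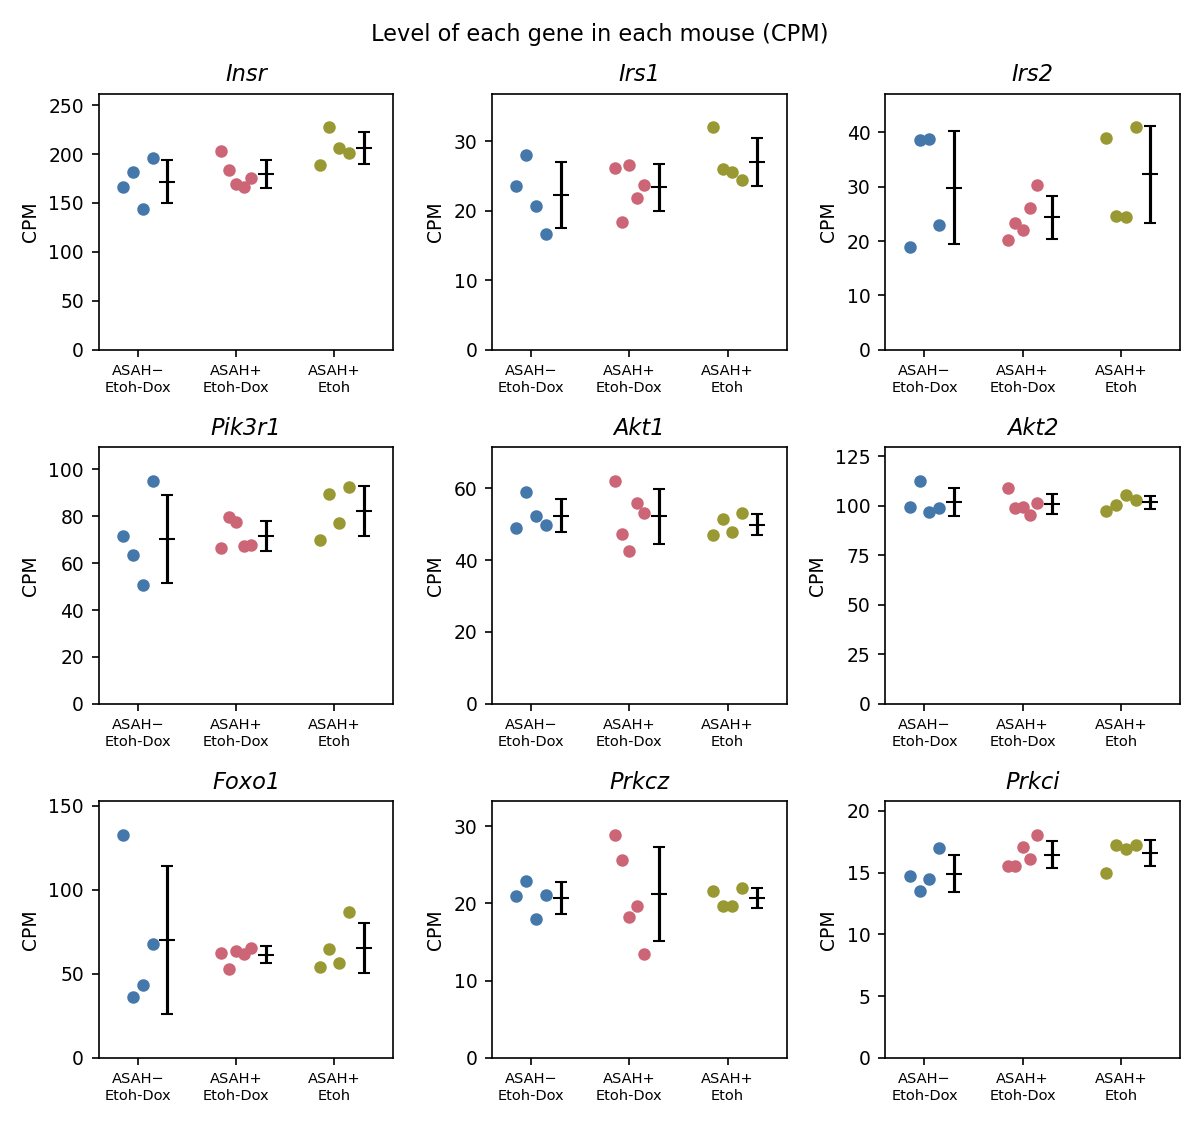
Level of each of the 9 genes in CPM (linear axis from 0) in each mouse, by group; points are mice, and the bar beside them is the mean with its SD. The 3 groups overlap for every gene, and 1 ASAH− mouse stands at 133 CPM for Foxo1, above the other 12 mice.

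Irs1 and Irs2 encode the main adaptors between the receptor and phosphatidylinositol 3-kinase. Irs1 (ENSMUSG00000055980, chr1:82233101-82291416, minus strand) was at 23.6, 28.0, 20.7 and 16.7 CPM in the ASAH− mice, at 26.2, 18.4, 26.6, 21.9 and 23.6 CPM in the Dox-fed ASAH+ mice, and at 32.0, 26.0, 25.5 and 24.5 CPM in the ASAH+ mice without Dox. Its lowest and its highest value differed by 1.92-fold, and the groups overlapped. Irs2 (ENSMUSG00000038894, chr8:10984681-11008458, minus strand) was at 18.9, 38.6, 38.8 and 22.9 CPM in the ASAH− mice, at 20.1, 23.3, 22.1, 26.0 and 30.2 CPM in the Dox-fed ASAH+ mice, and at 39.0, 24.6, 24.4 and 41.0 CPM in the ASAH+ mice without Dox. In both 4-mouse groups 2 mice were near 40 CPM and the other 2 well below, whereas no ASAH+ mouse on Etoh-Dox exceeded 30.2 CPM.

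Pik3r1 (ENSMUSG00000041417, chr13:101680563-101768217, minus strand) encodes p85 alpha, the regulatory subunit through which phosphatidylinositol 3-kinase docks on the adaptors. It was at 71.6, 63.4, 50.8 and 95.1 CPM in the ASAH− mice. In ASAH+ mice it was at 66.5, 79.6, 77.5, 67.2 and 67.8 CPM on Etoh-Dox and at 69.9, 89.5, 77.0 and 92.4 CPM on Etoh. The ASAH− mice held both the lowest and the highest value of the 13.

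Akt1 and Akt2 encode the main Akt kinases of liver, of which Akt2 is the one most tied to glucose and lipid metabolism. Akt1 (ENSMUSG00000001729, chr12:112653821-112674884, minus strand) was at 48.8, 59.0, 52.2 and 49.7 CPM in the ASAH− mice, at 62.0, 47.3, 42.4, 55.8 and 53.2 CPM in the Dox-fed ASAH+ mice, and at 46.9, 51.4, 47.9 and 53.0 CPM in the ASAH+ mice without Dox. Akt2 (ENSMUSG00000004056, chr7:27591552-27640826, plus strand) was at 99.3, 112, 97.0 and 98.7 CPM in the ASAH− mice, at 109, 98.7, 99.3, 95.3 and 101 CPM in the Dox-fed ASAH+ mice, and at 97.5, 100.4, 106 and 103 CPM in the ASAH+ mice without Dox. Its highest and lowest mouse of all 13 differed by only 1.18-fold.

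Foxo1 (ENSMUSG00000044167, chr3:52268336-52353221, plus strand) encodes the transcription factor that Akt keeps out of the nucleus. It was at 133, 36.4, 43.2 and 68.0 CPM in the ASAH− mice, a 3.65-fold range within 1 group. In ASAH+ mice it was at 62.7, 52.8, 63.6, 62.1 and 65.5 CPM on Etoh-Dox and at 53.8, 64.9, 56.7 and 86.7 CPM on Etoh. The ASAH− group therefore held both the lowest 2 mice and the highest mouse of the study, and the mouse with the most Foxo1 had the least Irs2.

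Prkcz and Prkci encode the atypical kinases PKC zeta and PKC iota. Prkcz (ENSMUSG00000029053, chr4:155260129-155361361, minus strand) was at 20.9, 22.9, 17.997 and 21.02 CPM in the ASAH− mice, at 28.9, 25.7, 18.3, 19.7 and 13.4 CPM in the Dox-fed ASAH+ mice, and at 21.7, 19.7, 19.6 and 22.0 CPM in the ASAH+ mice without Dox. The ASAH+ mice on Etoh-Dox spanned 2.15-fold and enclosed both other groups. Prkci (ENSMUSG00000037643, chr3:30995747-31052959, plus strand) was at 14.7, 13.5, 14.4 and 17.0 CPM in the ASAH− mice, at 15.5, 15.5, 17.0, 16.1 and 18.05 CPM in the Dox-fed ASAH+ mice, and at 14.98, 17.2, 16.9 and 17.2 CPM in the ASAH+ mice without Dox. Across all 13 mice it varied by 1.33-fold.

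To compare levels between genes, CPM was divided by the length of each gene's principal transcript in kb. Akt2 had the highest mean level, 22.3 CPM per kb, followed by Insr with 19.8 and Akt1 with 19.1. The ranges of these 3 over the 13 mice overlapped. Within each mouse Akt2 was nevertheless above Akt1, by 1.01-fold to 1.38-fold. Pik3r1 came next with 10.5 CPM per kb, and none of its mice reached the lowest Akt1 value (its maximum was 13.4, and the Akt1 minimum 15.8). Prkcz with 7.92, Foxo1 with 7.54, Irs2 with 4.50, Prkci with 3.40 and Irs1 with 2.64 CPM per kb completed the order, and each of these overlapped with the gene before it. The position of some genes depends on the length used. Per kb of coding sequence Foxo1, which has a long untranslated part, moved to 33.4 CPM per kb. It was then near Pik3r1 at 34.3 and Akt1 at 35.8, so that the gap between Akt1 and Pik3r1 nearly closed. Akt2 at 70.2 and Insr at 45.0 had the highest means per coding kb, and Prkcz was at 11.8.

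**Figure D2:**
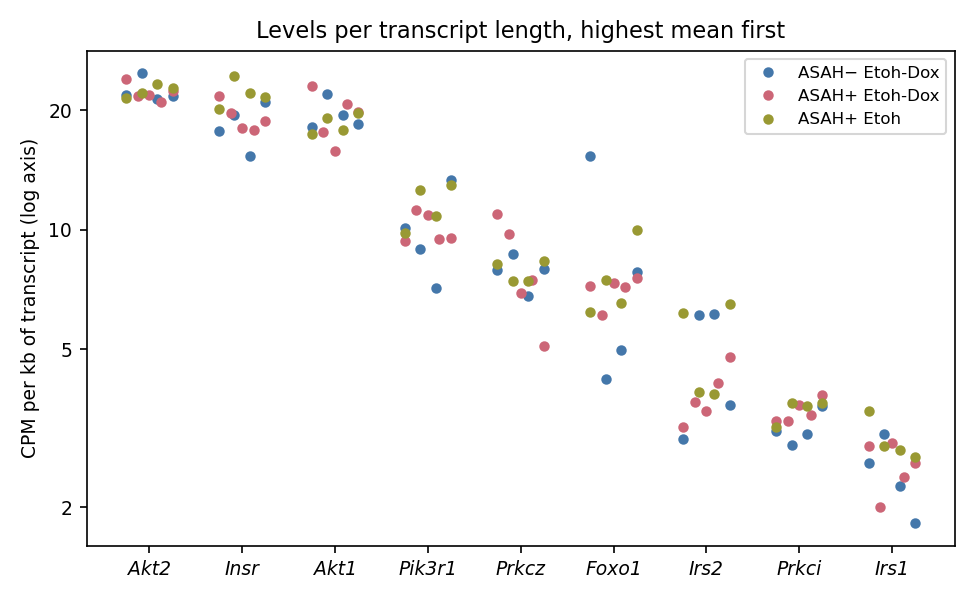
Level in CPM per kb of transcript (log axis) of the 9 genes, ordered by mean; points are mice, coloured by group. Akt2, Insr and Akt1 lie above the other 6 genes in every mouse, with means of 22.3, 19.8 and 19.1, and Irs1 is lowest at 2.64.

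Within the pairs of related genes, the ratio of levels per kb of transcript also varied between mice. Akt2 over Akt1 ranged from 1.01 to 1.38 with a median of 1.16. Irs2 over Irs1 ranged from 1.11 to 2.70 with a median of 1.76, and Prkci over Prkcz from 0.302 to 0.753 with a median of 0.450. Irs2 exceeded Irs1 and Prkcz exceeded Prkci in all 13 mice on this scale. Per coding kb the medians were 1.95, 1.13 and 0.799, and the lowest Irs2 ratio was 0.717 and the highest Prkci ratio 1.34, so that these 2 orders did not hold in every mouse.

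Spread between mice of a group was compared with that of 7930 genes with a mean log2 CPM above 3. The within-group SD of log2 CPM was 0.49 for Foxo1, at the 95.5th percentile of those genes. The ASAH− mice carried this value, since the coefficient of variation of Foxo1 in CPM was 62.7% in them, 22.7% in ASAH+ mice on Etoh and 8.04% in ASAH+ mice on Etoh-Dox. The SD was 0.39 for Irs2 (91.8th) and 0.29 for Prkcz (83.0th), against a median of 0.17 over all of them. For Prkcz the ASAH+ mice on Etoh-Dox carried it, with a coefficient of variation of 28.9% against 9.82% in ASAH− mice and 6.09% in ASAH+ mice on Etoh, while for Irs2 it was 34.95%, 16.1% and 27.8% in the ASAH− mice, the ASAH+ mice on Etoh-Dox and those on Etoh. Pik3r1 (75.2nd) and Irs1 (74.3rd) were also above the median, whereas Akt1 (44.0th), Insr (35.5th), Prkci (17.3rd) and Akt2 (3.10th, SD 0.075) were below it. These genes were not matched on level. Counts of the 9 genes ran from 298 (Prkci) to 7338 (Insr) per mouse, and counting error, which is larger for fewer counts, is part of each SD. The root of edgeR's fitted dispersion, which leaves out counting error, was lowest for Akt2 (10.3%) and Prkci (10.4%), which were nearly equal. It was highest for Irs2 (24.8%) and Foxo1 (32.1%). The clock genes Dbp (4.95 to 111 CPM) and Arntl (0.8285 to 17.3 CPM) also varied widely within groups, and their part in the spread of Foxo1 and Irs2 was not tested. A fit with their log2 ratio as a covariate, added after seeing the data, called 0 of the 9 genes in each comparison.

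The first comparison, of ASAH+ with ASAH− mice on the same Etoh-Dox diet, asks what hepatocyte acid ceramidase adds. The induction was plain, with Asah1 at 9668 to 15935 CPM in the 5 ASAH+ mice and 40.04 to 55.0 CPM in the 4 ASAH− mice. Insr differed by 0.065 on the log2 scale (SE 0.097), Irs1 by 0.069 (SE 0.15) and Pik3r1 by 0.030 (SE 0.15), each higher on average in ASAH+ mice by less than its SE. Akt1 differed by -0.0064 (SE 0.10) and Akt2 by -0.016 (SE 0.069). For Akt2 the 95% interval of the ratio of ASAH+ to ASAH− mice was 0.893 to 1.10, and for Insr 0.905 to 1.21.

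Prkci, at 0.14 (SE 0.088), had the highest value and was higher in ASAH+ mice in 17 of the 20 pairs of mice. Where pairs of mice are counted as higher or lower, each mouse of 1 group is set against each mouse of the other. Such pairs share mice, so they are neither matched nor independent. Prkcz was at 0.036 (SE 0.17), Foxo1 at -0.19 (SE 0.31) and Irs2 at -0.29 (SE 0.23), with Irs2 lower in ASAH+ mice in 12 of 20 pairs. Irs2 was at -0.45 without ASAH− replicate 1 and at -0.14 without ASAH− replicate 3. The 95% interval of the ratio was wide for the variable genes, 0.551 to 1.39 for Foxo1 and 0.575 to 1.16 for Irs2. All 9 had an adjusted p of 1.00 to 3 digits in edgeR, 0 of 9 had an unadjusted p under 0.05 against 2.86% of all genes, and 0 of 9 had groups that did not overlap against 0.887%. DESeq2 on these 2 groups gave an unadjusted p under 0.05 for 0 of 9, against 2.49% of genes past the count filter. The sign of the Foxo1 value rested on 1 ASAH− mouse: without replicate 1, at 133 CPM, it turned to 0.33.

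**Figure D3:**
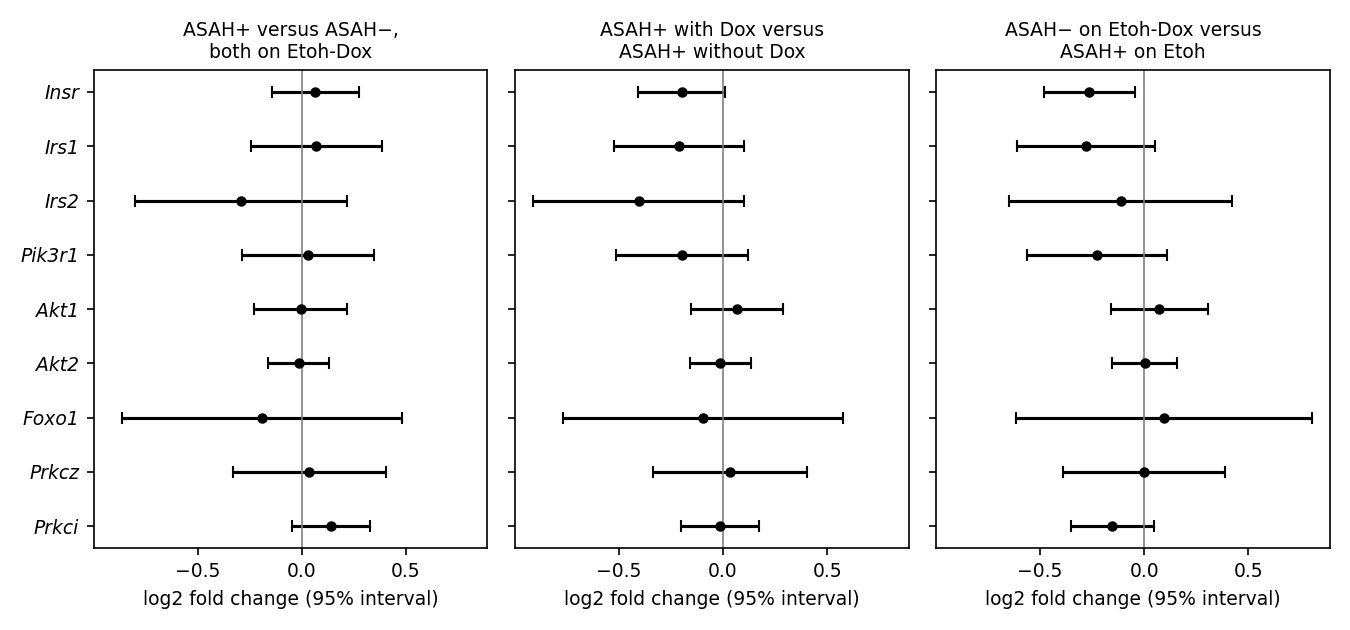
Log2 fold change of each of the 9 genes in the 3 comparisons, with the first named group over the second; points are edgeR estimates and bars their 95% intervals. Bars of Foxo1 and Irs2 are the widest, and the bar of Insr in the third panel is the single one that does not reach 0.

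The second comparison, of ASAH+ mice with and without Dox, holds the genotype constant and changes both the transgene and the antibiotic. Asah1 was at 44.2 to 48.3 CPM without Dox. Insr was at -0.20 (SE 0.097), lower with Dox in 18 of 20 pairs of mice, with an adjusted p of 0.697 (edgeR). Irs1 was at -0.21 (SE 0.15), Pik3r1 at -0.20 (SE 0.15, lower in 16 of 20 pairs) and Irs2 at -0.40 (SE 0.23, lower in 16 of 20 pairs), with adjusted p values of 0.780, 0.800 and 0.738 in edgeR. Akt1 at 0.067 (SE 0.10), Akt2 at -0.012 (SE 0.069), Foxo1 at -0.094 (SE 0.31), Prkcz at 0.036 (SE 0.17) and Prkci at -0.012 (SE 0.088) stayed within their SE of 0. An unadjusted p under 0.05 was found for 0 of 9 against 7.29% of all genes, and groups without overlap for 0 of 9 against 2.58%. With DESeq2 on the groups compared, 2 of 9 (Insr and Irs2) had an unadjusted p under 0.05, against 8.06% of the 14310 genes past the same count filter, and 0 of 9 passed after adjustment.

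The third comparison, of ASAH− mice on Etoh-Dox with ASAH+ mice on Etoh, sets mice with Dox against mice without it where neither expresses the transgene, and genotype and Dox cannot be told apart in it. It shares its control mice with the second comparison and its ASAH− mice with the first, so the 3 sets of values are not independent. Insr was at -0.26 (SE 0.10), lower in the ASAH− mice in 15 of 16 pairs of mice. Its unadjusted p was 0.0223 and its adjusted p 0.479 in edgeR, and the 95% interval of the ratio was 0.716 to 0.970. Under the other settings the Insr value ran from -0.33 to -0.19, and its smallest adjusted p was 0.243. This was 1 of 9 genes with an unadjusted p under 0.05, where 9.19% of all genes had one, and DESeq2 on these 2 groups also gave 1 of 9 (Insr), against 9.09% of genes past the count filter.

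Irs1 at -0.28 (SE 0.15), Pik3r1 at -0.23 (SE 0.16), Prkci at -0.15 (SE 0.093) and Irs2 at -0.11 (SE 0.25) were also below 0 in the third comparison, with adjusted p values of 0.608, 0.707, 0.656 and 0.931 in edgeR. Akt1 was at 0.073 (SE 0.11), Akt2 at 0.0036 (SE 0.073), Foxo1 at 0.096 (SE 0.33) and Prkcz at -0.00025 (SE 0.18). Groups did not overlap for 0 of 9 genes against 5.50% of all genes. Leaving out single mice moved Pik3r1 between -0.41 (without ASAH− replicate 4) and -0.099 (without ASAH− replicate 3), and Irs1 between -0.41 (without ASAH− replicate 2) and -0.17 (without ASAH− replicate 4). Without ASAH− replicate 1 Foxo1 turned to -0.43, and Irs2 turned above 0, to at most 0.035, without ASAH− replicate 1 or without ASAH+ Etoh replicate 4.

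The median log2 fold change over the 9 genes was 0.030, -0.094 and -0.11 in the 3 comparisons, against -0.0023, 0.013 and 0.016 over all genes tested. Transcript length moved with these values. Genes with a principal transcript of 8 kb or more (638 genes, Insr, Irs1 and Foxo1 among them) had medians of 0.052, -0.080 and -0.13, and genes below 2 kb (4387) had medians of -0.026, 0.052 and 0.077. Its part in the values of Insr and Irs1 was not tested. The summed level of 3 red cell markers (Hba-a1, Hbb-bs and Alas2) was 90.8 to 125 CPM in mice without Dox, 135 to 989 CPM in ASAH− mice and 157 to 531 CPM in ASAH+ mice on Etoh-Dox, with 0 of the 3 genes passing after adjustment. Their part in the values of the 9 genes was not tested either.

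**Figure D4:**
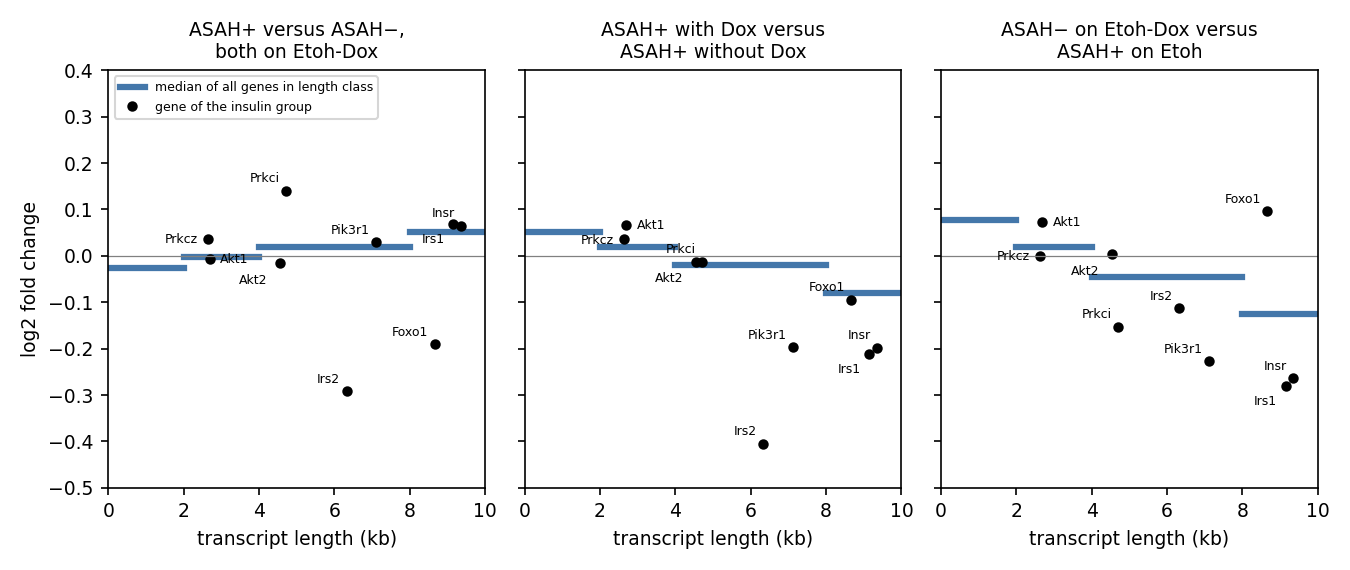
Log2 fold change of the 9 genes against the length of their principal transcript in kb, in the 3 comparisons; blue lines are medians of all tested genes in 4 length classes (the last, 8 kb or more, is drawn to 10 kb). In the third panel the class medians fall from 0.077 to -0.13, and Insr and Irs1, the longest of the 9, lie below the median of their class. Foxo1, in the same class, lies above it at 0.096.

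Whole liver mixes cell types, so fewer cells of a type and less RNA per cell cannot be told apart. The 5 hepatocyte markers summed to 90728 to 115936 CPM in mice without Dox, 108763 to 129022 in ASAH− and 79316 to 118330 in ASAH+ mice on Etoh-Dox. Kupffer markers summed to 239 to 299 CPM in mice without Dox, 301 to 584 in ASAH− and 222 to 428 in ASAH+ mice on Etoh-Dox, so that the ASAH− mice lay above the mice without Dox without overlap. Red cell markers summed to 90.8 to 125, 135 to 989 and 157 to 531 CPM in the same order, with both groups on Etoh-Dox above every mouse without Dox. Sinusoidal endothelial markers summed to 120 to 161, 108 to 198 and 95.1 to 130 CPM in the same order. Stellate cell markers summed to 218 to 267, 255 to 300.1 and 204 to 247 CPM, so that on Etoh-Dox the ASAH+ mice lay below the ASAH− mice without overlap. In the first comparison all 5 markers of each of the stellate, endothelial, Kupffer and cholangiocyte lists had values below 0, and so did 4 of 5 hepatocyte and 3 of 3 red cell markers. Of them 2 stellate, 3 endothelial and 1 hepatocyte markers had an unadjusted p under 0.05, against 2.86% of all genes. Above 0 there were 3 of 5 lymphocyte markers and the single exocrine pancreas marker tested. Reln, a stellate marker, was at -0.37 (SE 0.087) there, lower in 20 of 20 pairs of mice, with an unadjusted p of 0.00080 and an adjusted p of 1.00 (edgeR). In the second comparison 4 endothelial markers and 1 hepatocyte marker below 0 had an unadjusted p under 0.05. So did 1 lymphocyte and 3 red cell markers above 0, against 7.29% of all genes. The fifth endothelial marker, Stab2, was at 0.044 (SE 0.20) there. Of 5 hepatocyte markers 2 were above 0, with Apoa1 the highest at 0.26 (SE 0.12). In the third 3 Kupffer, 2 stellate, 1 lymphocyte and 3 red cell markers above 0 had an unadjusted p under 0.05. The share of all genes was 9.19%. Such a p was also found for 2 hepatocyte markers that went opposite ways, Apoa1 at 0.54 (SE 0.13) and Cyp3a11 at -0.53 (SE 0.17). None of the markers passed after adjustment, and their part in the values of the 9 genes was not tested. Adipocyte markers, which matter here because fat also expresses the insulin pathway, summed to at most 0.0913 CPM in any mouse, and Lep was at 0 in all 13.

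The wider pathway was covered by 11 lists of 142 further genes, of which 138 passed the filter on low counts. None of the 138 was called in any comparison (edgeR, adjusted p under 0.1), with smallest adjusted p values of 1.00, 0.512 and 0.389. An unadjusted p under 0.05 was found for 1.45%, 7.97% and 10.1% of them in the 3 comparisons, against 2.86%, 7.29% and 9.19% of all genes. Their median log2 fold changes were 0.020, -0.013 and -0.028.

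Upstream of Akt, the insulin receptor and adaptor list (10 genes) had 0, 0 and 1 genes with an unadjusted p under 0.05. That gene was Sos1, which links receptors to Ras, at -0.41 (SE 0.11) in the third comparison, with an adjusted p of 0.389 (edgeR). It was lower in all 16 pairs of mice there, and 5.50% of all genes had groups without overlap. Of 13 phosphatidylinositol 3-kinase and phosphoinositide genes, 0, 2 and 5 had an unadjusted p under 0.05, against 2.86%, 7.29% and 9.19% of all genes. Among them was Pik3r2, the p85 beta subunit and paralogue of Pik3r1. It was at 0.44 (SE 0.13) with Dox in ASAH+ mice, against -0.20 of Pik3r1. It was higher in 19 of 20 pairs there, with an adjusted p of 0.512 (edgeR). Pik3r2 was at 0.10 (SE 0.13) in the first comparison and at 0.33 (SE 0.14) in the third, where neither group expresses the transgene. Pik3c2a, a class II enzyme, was at -0.32 (SE 0.14) in the second comparison and -0.39 (SE 0.15) in the third.

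An unadjusted p under 0.05 is set here too against 2.86%, 7.29% and 9.19% of all genes. The 12 genes of Akt kinases and their upstream complex had 0, 1 and 0 with an unadjusted p under 0.05, the 17 Akt substrates and mTORC1 genes 0, 0 and 3, and the 11 FOXO factors and regulators tested 0 in each. Among inhibitors of insulin signalling, 15 of 16 genes were tested, with 0, 1 and 0 under that limit, and Trib1, a pseudokinase, had the lowest value in the first comparison, -0.34 (SE 0.22), and in the second, -0.51 (SE 0.22). Its adjusted p in the second was 0.636 (edgeR). Trib3, its paralogue, had the highest value of the list in each comparison, 0.33 (SE 0.33), 0.52 (SE 0.33) and 0.19 (SE 0.35). Socs3, a suppressor of cytokine and insulin receptor signals, was at -0.46 (SE 0.24) in the third. Protein phosphatase 2A, by which ceramide can act on Akt, had a list of 16 genes of its subunits, regulators and inhibitor. Of these, 0, 2 and 2 had an unadjusted p under 0.05, each a subunit gene with a value below 0. Ppp2r5e, a B56 subunit, was at -0.38 (SE 0.14) in the third comparison with an adjusted p of 0.441 (edgeR).

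Downstream, the 12 FOXO1 targets and insulin-repressed genes had a median of -0.076 in the first comparison, 0.017 in the second and 0.069 in the third. Of these 12, 1, 4 and 1 had an unadjusted p under 0.05, against 2.86%, 7.29% and 9.19% of all genes, and the smallest adjusted p in edgeR was 1.00, 0.551 and 0.484. In the first it was Apoc3, an apolipoprotein, at -0.26 (SE 0.084). In the second, Cited2 and Sesn3 (0.23, SE 0.11) were above 0, and Apoc3 (-0.22, SE 0.084) and Mttp (-0.20, SE 0.079), which loads lipid onto lipoproteins, were below 0. In the third it was Mttp, at -0.21 (SE 0.084) and lower in 16 of 16 pairs of mice, where 5.50% of all genes had groups without overlap. Apoc3 and Sesn3 were named after their values were seen. Igfbp1, an insulin-repressed binding protein of insulin-like growth factors, was at -0.83 (SE 0.51) in ASAH+ over ASAH− mice on Etoh-Dox and lower in 16 of 20 pairs, with an adjusted p of 1.00 (edgeR). Cited2 was at 0.30 (SE 0.15) in the first comparison and 0.44 (SE 0.15, higher in 19 of 20 pairs) in the second. The 10 insulin-induced genes, among them the lipogenic enzyme Fasn at -0.58 (SE 0.47) in the second comparison, had medians of 0.25, -0.43 and -0.24 with wide errors and 0 with an unadjusted p under 0.05.

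The 12 genes of the atypical PKC complex encode polarity proteins and other partners of PKC zeta and PKC iota, such as Sqstm1, Map2k5 and Pawr. They had medians of 0.049, 0.031 and 0.038, and 0 had an unadjusted p under 0.05 in any comparison. Pard6a, a direct partner of both kinases, was at -0.33 (SE 0.22) in the first and 0.32 (SE 0.24) in the third. Of 12 other PKC and PKC-related genes, 10 were tested, with 1, 1 and 2 under it, against 2.86%, 7.29% and 9.19% of all genes. Prkd2, a protein kinase D, was at -0.31 (SE 0.11) in ASAH+ over ASAH− mice and lower in all 20 pairs of mice. Its unadjusted p was 0.0148 and its adjusted p 1.00 (edgeR). Prkd2 was thus among the 0.887% of all genes whose groups did not overlap there. In the second comparison it was at 0.16 (SE 0.11) and in the third at 0.48 (SE 0.12, adjusted p of 0.389 in edgeR), with group means of 6.75 CPM in ASAH− mice and, in ASAH+ mice, of 5.43 CPM with Dox and 4.86 CPM without it. Prkcb, a conventional PKC, was at 0.61 (SE 0.33) in the second comparison and 0.63 (SE 0.35) in the third.

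Likeness between genes was described by Pearson's r of log2 CPM over the 13 mice, picked as the highest among 11112 genes, so no test is given. Nearest to Insr was Kin, with r = 0.94, and to Foxo1 Slc38a2, with r = 0.92, a transporter of neutral amino acids. Nearest to Irs1 was Rtraf (r = 0.92) and to Akt2 Narfl (r = 0.88). Prkci was nearest to Cnot6l (r = 0.87), Akt1 to Pygo2 (r = 0.86) and Irs2 to Pcbp4 (r = 0.82). Leaving out the 2 mice farthest from the median left these values between 0.73 and 0.93. None of the nearest genes was one of the 9. Among the 36 pairs of the 9 genes, Insr and Pik3r1 had the highest r, 0.72, and Irs2 and Foxo1 the lowest, -0.48, followed by Prkcz and Prkci at -0.45.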

How the data were processed

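The authors mapped reads with salmon to mouse transcripts of GENCODE M19 (GRCm38.p6), summarised them to genes with tximport, and deposited estimated counts, all whole numbers and not scaled. Totals per mouse were 17819486 to 35358711 (median 24454043). Salmon divides reads that fit several transcripts, and transcript lengths per mouse were not used here. Groups came from the sample descriptions, since the titles of ASAH+ samples give the opposite Dox treatment. Counts were fitted in R 4.3.3 with edgeR 4.0.16 (filter by group, TMM, robust quasi-likelihood, 3 group means over 13 mice). SE is the log2 fold change over the root of F. Alternatives used DESeq2 1.42.0, limma 3.58.1 (voom), other filters, totals and samples. The code was tested on simulated data.

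Named were the 9 genes, the highest and lowest of each list by log2 fold change (mean log2 CPM above 1) as far as described, and the most alike genes; a few of these are not reported here. Genes and lists were chosen with earlier results of these data known. Annotation was GENCODE M21 (GRCm38). Replicates were separate mice per the labels.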

Additional observations from a re-analysis of the deposited data

Results flagged for a closer look

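3 values stood apart from the other mice of their group by Dixon's gap ratio, out of 27 groups of 4 or 5 mice examined; chance alone gives about 1 in 20. Prkci was at 14.98 CPM in replicate 1 of the ASAH+ mice on Etoh, below the other 3. Akt2 was at 112 CPM in replicate 2 of the ASAH− mice on Etoh-Dox, above the other 3. Foxo1 was at 52.8 CPM in replicate 2 of the ASAH+ mice on Etoh-Dox, below the other 4. Foxo1 at 133 CPM in ASAH− replicate 1 did not pass the same limit, because its group was spread widely.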

How the results depend on the processing

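The number of the 9 genes called stayed at 0 in each comparison under all 24 alternatives run for it. The calls over all genes differed: DESeq2 on all mice called 12, 95 and 150 genes in the 3 comparisons, and on the groups compared 11, 113 and 168, against 2 each in edgeR. DESeq2 on all mice gave no adjusted p to 4 of the 9 genes in the second comparison. Of 621 values recomputed for the 9 genes, 567 kept their sign and 54 changed it, all of these with an interval that included 0 in the main analysis.

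In the first comparison Akt1 changed sign to 0.0050 without a count filter, 0.0016 with edgeR on the groups compared, 0.0019 with Asah1 left out of the totals and 0.0010 with the Dbp to Arntl ratio as a covariate, an alternative chosen after seeing the data. That covariate moved Akt2 to 0.0020 in the second comparison and, in the third, Prkcz to 0.036 and Foxo1 to -0.041. In the third comparison Akt2 was at -0.013 in both DESeq2 fits, -0.010 with DESeq2 size factors, -0.0027 without a count filter, -0.0053 with edgeR on the groups compared and -0.012 without Asah1 in the totals. Foxo1 was at -0.069 there with limma-voom, and Prkcz at 0.0019 with at least 10 counts in every mouse. In the first comparison limma-voom put Foxo1 at -0.0024, against -0.19 in the main fit.

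With each mouse left out in turn (13 fits), the first comparison ranged from -0.41 to 0.33 for Foxo1 (ASAH− replicate 1), -0.076 to 0.066 for Akt1 (ASAH− 2, ASAH+ Etoh-Dox 2 and 3, ASAH+ Etoh 3 and 4), -0.044 to 0.035 for Akt2 (ASAH− 2, ASAH+ Etoh-Dox 4), -0.098 to 0.21 for Pik3r1 (ASAH− 2 and 3, ASAH+ Etoh-Dox 2), -0.10 to 0.17 for Prkcz (ASAH− 3, ASAH+ Etoh-Dox 1 and 2), -0.011 to 0.13 for Insr (ASAH− 3) and -0.047 to 0.20 for Irs1 (ASAH− 4); the mice whose loss turned the sign stand in parentheses. The second ranged from -0.11 to 0.15 for Prkcz (ASAH+ Etoh-Dox 1 and 2, ASAH+ Etoh 3), -0.014 to 0.12 for Akt1 (ASAH+ Etoh-Dox 1), -0.059 to 0.0073 for Prkci (ASAH+ Etoh-Dox 2, ASAH+ Etoh 2), -0.052 to 0.0069 for Akt2 (ASAH+ Etoh-Dox 4) and -0.18 to 0.061 for Foxo1 (ASAH+ Etoh 4). The third ranged from -0.27 to 0.035 for Irs2 (ASAH− 1, ASAH+ Etoh 4), -0.43 to 0.31 for Foxo1 (ASAH− 1), -0.048 to 0.026 for Akt2 (7 mice) and -0.053 to 0.061 for Prkcz (ASAH− 3, ASAH+ Etoh-Dox 4, ASAH+ Etoh 1 and 4). Signs held, with ranges of 0.096 to 0.21 for Prkci and -0.45 to -0.14 for Irs2 in the first; -0.26 to -0.15 for Insr, -0.27 to -0.12 for Irs1, -0.53 to -0.28 for Irs2 and -0.27 to -0.14 for Pik3r1 in the second; and -0.33 to -0.19 for Insr, -0.41 to -0.17 for Irs1, -0.41 to -0.099 for Pik3r1, -0.22 to -0.11 for Prkci and 0.012 to 0.098 for Akt1 in the third. The cause was not tested.

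The replicate numbers name different mice. Same-numbered mice of different groups did not deviate together (mean r -0.046 over 12 pairs, 2 of them over 0.1). With the replicate block 0 of the 9 genes were called, 1, 2 and 0 of all genes were, and Foxo1 was at -0.037 in the third comparison. The block moved Prkcz from 0.036 to 0.15 in the first comparison and from 0.036 to 0.14 in the second.

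With coding length in place of transcript length the median log2 ratio of levels was 0.96 for Akt2 over Akt1, 0.18 for Irs2 over Irs1 and -0.32 for Prkci over Prkcz. Counts of the 9 genes ranged from 298 to 7338 per mouse. Counting error and the spread between the 4 or 5 mice of a group both widen the 95% intervals, which do not separate them.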
